A study of Mus musculus with 4 samples.

Results

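The P2X receptors, a family of ion channels opened by extracellular ATP, were followed through the return of Notch activity in pre-T cells. The family has 7 genes in mouse, P2rx1 to P2rx7, and was chosen by the higher level of P2rx1 upon washout of a Notch inhibitor. All 7 are among the 24391 genes of the count table. Of these, 5 passed the filter on low counts and entered the fit over 12266 genes, whereas P2rx3 and P2rx6 did not. As P2rx1 in this comparison was the reason for the choice, the values of the P2X genes are given as a description without a test.

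Each P2X subunit crosses the membrane with a pair of helices, and trimers of subunits form a channel that lets sodium and calcium in and potassium out once ATP has bound. In T cells, ATP released through channels of the cell itself acts back on P2X1, P2X4 and P2X7, and the calcium that enters feeds calcineurin and NFAT. P2X7 needs far more ATP than the other receptors, and its prolonged opening permeabilizes the membrane and can kill the cell. Notch signaling works through RBPJ, a DNA-binding protein that recruits the Notch intracellular domain (NICD), which the enzyme γ-secretase releases from the receptor.

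The data are 4 RNA-Seq libraries of Beko cells, a mouse progenitor T-cell line with constitutive Notch activity. In 2 libraries (GSI) the cells had been treated with the γ-secretase inhibitor DAPT for 48 h. The authors washed away the old inhibitor and added fresh inhibitor at 24 h of this treatment. In the other 2 (washout) the same 48 h of DAPT were followed by a wash and 24 h of culture in the absence of inhibitor. Beko is 1 cell line, no source used here says that the replicates were separate cultures, and p-values therefore measure the spread between these libraries, which may be technical. No library of cells washed at 48 h and kept in inhibitor for a further 24 h was analysed here. The return of Notch activity therefore cannot be told apart from the final wash and the further 24 h of culture.

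The libraries held 29671401 and 13716199 counted reads in GSI and 36364200 and 14451995 upon washout, so that replicate 1 was the deeper one in both groups. Of 8 known Notch targets and pathway genes, 7 rose upon washout, by 1.31 (Nrarp) to 3.47 (Hey1) on the log2 scale, and Notch3 at 0.14 did not pass. All 10 markers of T-cell progenitors were tested, with a summed level between 4461 and 4664 CPM (counts per 1000000 reads counted, corrected by the normalization factor) in the 4 libraries. Within this even sum Ptcra (log2 fold change 2.37) and Notch1 (1.14) rose, Gata3 fell by 1.67, and the other 7 were not called, among them Tcf7 at -0.87, Bcl11b at -0.72 and Thy1 at -0.58. A gene was called when its adjusted p-value from edgeR's quasi-likelihood test (Benjamini-Hochberg) was under 0.05 and its log2 fold change was above 1 or below -1. This held for 950 genes that were higher upon washout (7.74% of those tested) and 1437 that were lower (11.7%), 19.5% in both directions together. With the total count in place of TMM factors, 586 genes were higher and 1963 lower, which took the share of higher calls from 39.8% to 23.0% and the median log2 fold change of all genes tested from -0.01 to -0.21. Both libraries of one condition lay above both of the other in 38.2% of the genes tested with washout higher, and in 39.1% with washout lower.

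P2rx1 and P2rx7 lay at opposite ends of the comparison. P2rx1 was 15.3-fold higher upon washout, P2rx7 was 28.9-fold lower in pooled counts, and P2rx4, the most abundant member in GSI, was lower by 0.73 on the log2 scale. P2rx2 and P2rx5 were near the limit of detection in all libraries, and P2rx3 and P2rx6 were at or close to it. No call is given for the P2X genes, as P2rx1 in this comparison was the reason for the choice. The washout libraries both lay above both GSI libraries for P2rx1, P2rx2 and P2rx5 (beside 38.2% of all genes tested). They both lay below for P2rx4 and P2rx7 (beside 39.1%). Nothing is read from these counts, since the choice of the family used the same comparison. The plot of levels by library shows the single values behind these statements.

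**Figure D1:**
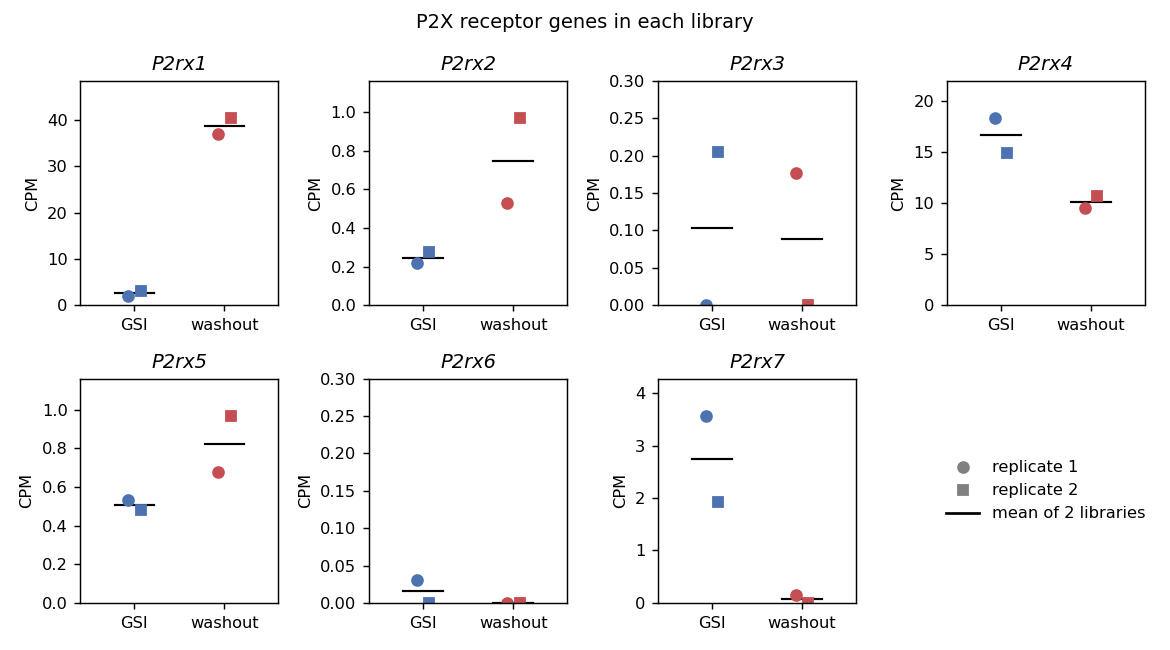
Level of each P2X gene in CPM (vertical axis, one scale per panel, starting at 0) in the GSI and washout libraries. Circles are replicate 1, squares are replicate 2 and the line is the mean of the 2 libraries. P2rx1 was at 2.06 and 3.02 CPM in GSI and at 37.1 and 40.4 CPM upon washout, and P2rx7 went the other way, whereas P2rx3 and P2rx6 had at most 6 counts in any library.

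P2X1 forms a fast channel that opens and desensitizes quickly, and it is best known from platelets and smooth muscle. P2rx1 had 66 and 44 counts in GSI replicates 1 and 2, and 1263 and 543 counts in washout replicates 1 and 2. Both washout libraries were far above both GSI libraries, and the groups did not overlap. In CPM the mean was 2.54 ± 0.674 in GSI and 38.8 ± 2.33 upon washout (SD, n = 2 each). The log2 fold change was 3.99 with a standard error of 0.200, which ranks 11 from the highest among the 12266 genes tested. Leaving out GSI replicate 1 gave 3.67, and leaving out GSI replicate 2 gave 4.24. P2rx1 (ENSMUSG00000020787.8) lies on the plus strand of chromosome 11 from 72812605 to 72828702 (mm9), and no other annotated gene overlaps it.

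The DNA just upstream of P2rx1 is shown because this gene was the reason for choosing the family, and that of P2rx4 and P2rx7 because these neighboring genes were lower. The stretches are taken from RefSeq (GRCm38.p6), on the plus strand, and hold no annotated exon. Capitals mark TGGGAA, the core of the sequence that RBPJ is known to bind.
P2rx1, chr11:72998895-72999055: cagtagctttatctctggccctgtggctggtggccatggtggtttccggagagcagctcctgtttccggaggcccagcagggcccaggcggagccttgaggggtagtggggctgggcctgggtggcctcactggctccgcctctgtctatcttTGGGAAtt
P2rx4, chr5:122707294-122707517: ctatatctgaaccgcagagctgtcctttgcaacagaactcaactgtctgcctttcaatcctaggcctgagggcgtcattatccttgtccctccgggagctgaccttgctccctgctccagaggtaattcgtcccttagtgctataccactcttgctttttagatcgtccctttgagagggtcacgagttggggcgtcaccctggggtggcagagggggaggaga
P2rx7, first start, chr5:122643677-122643910: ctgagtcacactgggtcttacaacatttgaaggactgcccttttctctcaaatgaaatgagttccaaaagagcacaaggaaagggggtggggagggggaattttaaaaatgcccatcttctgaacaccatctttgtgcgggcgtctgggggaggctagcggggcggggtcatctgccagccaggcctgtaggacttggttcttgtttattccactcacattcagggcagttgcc
P2rx7, internal start, chr5:122650133-122650382: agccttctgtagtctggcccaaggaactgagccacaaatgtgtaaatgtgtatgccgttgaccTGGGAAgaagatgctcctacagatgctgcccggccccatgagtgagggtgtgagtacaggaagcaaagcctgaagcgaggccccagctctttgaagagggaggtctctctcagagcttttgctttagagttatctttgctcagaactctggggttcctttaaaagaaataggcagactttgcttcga
In P2rx1 the TGGGAA begins at position -97 from the RefSeq start at 72999145, which is 72812550 to 72812555 of chromosome 11 in mm9, where the same letters stand. The printed stretch of P2rx1 stops short of 72999145 because an earlier annotated start follows it, and TGGGAA lies closer to that start. The stretch of P2rx4 holds none. P2rx7 has 2 RefSeq starts, and TGGGAA stands at position -187 from the internal one, which lies inside the gene, but not before the first.

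In full windows of 250 bases before to 50 bases after a start, TGGGAA or its complement TTCCCA was found in 8397 of 32851 promoters, or 25.6%. The variant TGAGAA, or TTCTCA on the other strand, was found in 6648 of them, or 20.2%. P2rx1 and P2rx4 had no TGAGAA in their windows. TGAGAA was present 37 bases after the first start of P2rx7, and at 25 and 33 bases after its internal start. The window of P2rx6 held TGGGAA 6 bases after the start. A window was found for P2rx1, P2rx4, P2rx6 and P2rx7, not for P2rx2, P2rx3 and P2rx5. These are matches of letters, and RBPJ binding at the P2X genes was not analysed here.

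P2X4 is a calcium-permeable channel that is found at the cell surface and in lysosomes, from which it can be brought to the surface. P2rx4 had 585 and 218 counts in GSI and 323 and 144 counts upon washout, or 18.3 and 14.9 against 9.49 and 10.7 CPM. The lower GSI library was still above the higher washout library. The mean was 16.6 ± 2.36 CPM in GSI and 10.1 ± 0.866 CPM upon washout (SD, n = 2 each), 1.64-fold higher in GSI. The log2 fold change of -0.73 (standard error 0.171) did not reach -1, and it was -0.93 with total-count scaling. The gene runs from 123157593 to 123179747 on chromosome 5 (mm9).

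P2X7 is the receptor of T cells that responds to high ATP, opens without desensitizing and activates the inflammasome in myeloid cells. P2rx7 had 114 and 28 counts in GSI, and 5 and 0 counts upon washout. In CPM these were 3.56 and 1.92 against 0.147 and 0, so that the groups did not overlap, and the GSI libraries differed from each other as well. Pooled over libraries there were 142 counts in GSI and 5 upon washout. This is 28.9-fold lower after scaling by library size and TMM factor, with an exact 95% interval of 12.1 to 90.5 that covers counting error only. In washout replicate 2, where the gene was at 0, a limit of 3 counts makes it at least 12.3-fold lower than the GSI mean. The fitted log2 fold change was -4.72 (standard error 0.698), rank 12 from the lowest, and it depends on the prior count because of the library at 0. The gene passed the filter on low counts through the GSI libraries alone, where it is high. P2rx7 lies on the same strand as P2rx4, from 123093920 to 123141441 on chromosome 5, and ends 16152 bases before P2rx4 begins.

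Some markers listed for other cell types were lower upon washout, as P2rx7 was, and others were at 0 in all libraries. Those said below to have fallen were called, beside 11.7% of all genes tested that were called lower. The summed level of 6 mast cell markers was 274.5 and 166.7 CPM in GSI against 45.7 and 30.5 CPM upon washout, and Cpa3 and Kit fell by 4.30 and 1.53 on the log2 scale, while Fcer1a, Ms4a2, Mcpt4 and Tpsb2 were at 0 in all libraries. Of 6 myeloid markers only Itgam was tested and fell by 3.08, with a summed level of 49.0 and 38.3 against 5.52 and 4.99 CPM, and Lyz2 was at 0 in all libraries. The 6 platelet markers summed to 33.7 and 23.1 against 7.87 and 5.88 CPM, where Itga2b, Gp1bb and Itgb3 fell and Pf4, Gp9 and Ppbp were at 0. The platelet list thus ran opposite to P2rx1. The part of these markers in the level of P2rx7 was not tested, and in bulk RNA fewer cells of a type cannot be told apart from less RNA per cell. The 5 B-cell markers summed to 0.223 to 0.548 CPM over all libraries, and the 5 erythroid markers, none of which was called, to 12.8 and 12.6 against 7.05 and 7.29 CPM. Among 5 smooth muscle markers Des fell, with sums of 30.3 and 17.8 against 13.1 and 10.2 CPM. Without Des the other 4 summed to 9.50 and 9.12 against 7.29 and 8.41 CPM, and Myh11 was at 0.01 on the log2 scale. Among 5 neuronal markers Tubb3 fell, with sums of 8.97 and 7.61 against 3.88 and 3.35 CPM, while Snap25 and Syt1 were at 0.

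P2X2 and P2X3 are known from sensory neurons, where they form a channel together. P2rx2 had 7 and 4 counts in GSI and 18 and 13 counts upon washout. The washout libraries were higher, at 0.529 and 0.967 CPM against 0.219 and 0.274 CPM, and it was through them that the gene passed the filter. Its log2 fold change was 1.52 with a standard error of 0.540. P2rx3 had 0 and 3 counts in GSI and 6 and 0 counts upon washout, and the groups overlapped. It overlaps Ssrp1 on the other strand, a chromatin gene with 4240 to 20607 counts, and as the strand setting of the counting is not given in the sources used here, the few reads of P2rx3 cannot be assigned with certainty.

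P2X5 is a weakly conducting subunit and P2X6 hardly forms channels on its own. P2rx5 had 17 and 7 counts in GSI and 23 and 13 counts upon washout, a log2 fold change of 0.62 with a standard error of 0.416. Its washout libraries, at 0.676 and 0.967 CPM, lay above the GSI libraries at 0.531 and 0.480 CPM by little. P2rx6 had 1 count in GSI replicate 1 and 0 in the other 3 libraries, which is under the limit of 3 counts (0.0881 to 0.223 CPM), and it overlaps Slc7a4.

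**Figure D2:**
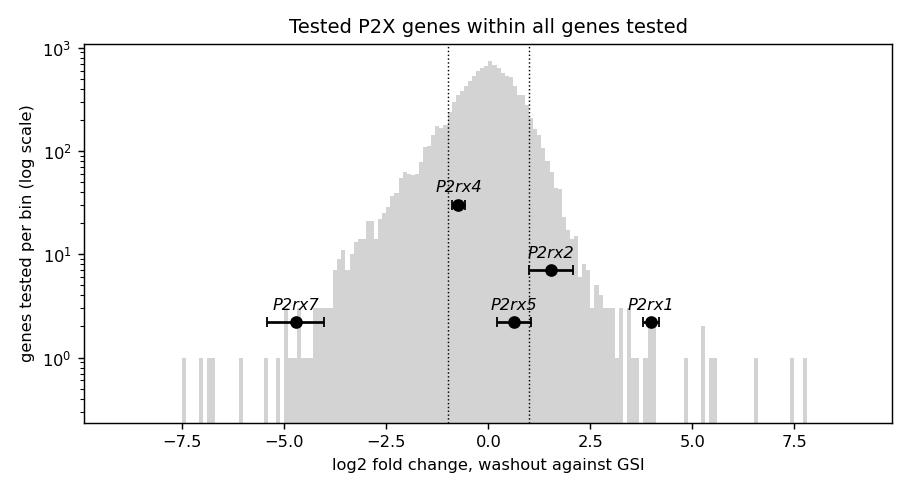
Histogram of the log2 fold change (washout against GSI, horizontal axis) of all 12266 genes tested, with the number of genes per bin of 0.1 on a log axis. Points mark the 5 P2X genes tested, with bars of 1 standard error, placed at heights without meaning, and dotted lines stand at -1 and 1. P2rx1 at 3.99 and P2rx7 at -4.72 lie in the tails, and P2rx4, P2rx5 and P2rx2 between them.

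The levels can be compared between genes per length, as CPM divided by the exon length in kilobases (RPKM). In GSI the order was P2rx4 (5.53 and 4.52 RPKM), P2rx1 (0.786 and 1.15), P2rx7 (0.645 and 0.347), P2rx5 (0.222 and 0.200) and P2rx2 (0.110 and 0.138), with no overlap between neighbors in this order. The place of P2rx1 before P2rx7 depends on exon length. By counts P2rx7 was above P2rx1 in GSI replicate 1 (114 against 66) and below it in replicate 2 (28 against 44). P2rx5 and P2rx2 rest on few counts. Upon washout P2rx1 came first with 14.1 and 15.4 RPKM, and P2rx4 followed with 2.87 and 3.24 RPKM. P2rx2 at 0.267 and 0.488 RPKM and P2rx5 at 0.282 and 0.404 RPKM were not separated. The summed level of the family was 7.30 and 6.43 RPKM in GSI against 17.7 and 19.5 RPKM upon washout. Its higher value upon washout comes from P2rx1, the gene behind the choice of the family. Without P2rx1 the other 6 genes summed to 6.51 and 5.28 RPKM in GSI and to 3.51 and 4.13 RPKM upon washout, lower in both washout libraries.

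Within the family, ratios do not depend on the scaling of the libraries. P2rx4 took 74.1% (95% Wilson interval 70.9 to 77.0) and 71.7% (66.4 to 76.5) of the P2X counts in GSI, and 19.7% (17.9 to 21.7) and 20.2% (17.4 to 23.3) upon washout. P2rx1 took 8.35% (6.62 to 10.5) and 14.5% (11.0 to 18.9) in GSI, and 77.1% (75.0 to 79.1) and 76.2% (72.9 to 79.1) upon washout. As P2rx1 was the gene behind the choice of the family, these shares are a description. The lower share of P2rx4 comes in part from the higher P2rx1, since P2rx4 itself was 1.64-fold higher in GSI. The washout libraries had close shares, whereas the intervals of P2rx1 in the GSI libraries did not overlap, so that the GSI replicates differed beyond counting error. For P2rx7 the share was 14.4% and 9.21% in GSI, and 0.305% and 0 of 713 counts upon washout. There were 0.113 and 0.202 counts of P2rx1 for each count of P2rx4 in GSI, and 3.91 and 3.77 upon washout. The plot of composition gives the same shares per length, in which P2rx1 made up 10.8% and 17.9% in GSI and 80.1% and 78.8% upon washout.

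**Figure D3:**
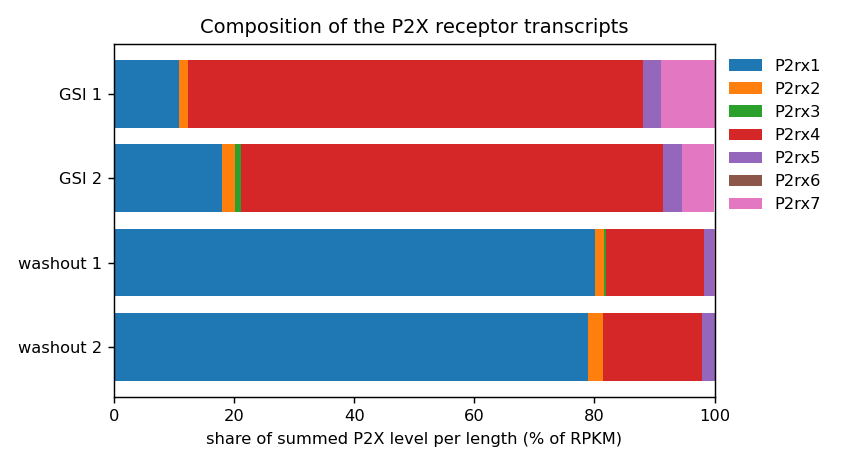
Share of each P2X gene in the summed RPKM of the family (horizontal axis, percent), with one bar for each library. P2rx4 held 75.7% and 70.3% in the GSI libraries and 16.3% and 16.6% in the washout libraries. In the washout libraries P2rx1, the gene behind the choice of the family, held 80.1% and 78.8%.

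The nearest genes on both sides of P2rx1 encode proteins of calcium handling. Atp2a3, a calcium pump of the endoplasmic reticulum, ends 6059 bases before P2rx1. Its log2 fold change was -0.93 (standard error 0.103, adjusted p = 0.00089 by edgeR with Benjamini-Hochberg adjustment), short of the fold threshold, and -1.13 with total-count scaling, where it was called. Camkk1, a kinase activated by calcium and calmodulin, begins 3808 bases after P2rx1 and rose from 374 and 260 to 1230 and 623 counts. The log2 fold change of Camkk1 was 1.50 (standard error 0.228, adjusted p = 0.00267 by the same test), smaller than that of P2rx1. The next genes out, Zzef1 (-0.35) and 1200014J11Rik (0.12), were not called. Before P2rx7, Ift81 of the ciliary transport machinery ends at a distance of 29393 bases, and it fell from 448 and 184 to 207 and 57 counts (log2 fold change -1.34, standard error 0.220, adjusted p = 0.00358 by the same test). Atp2a2 at 0.52 and Camkk2 beyond P2rx4 at 0.09 were not called.

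**Figure D4:**
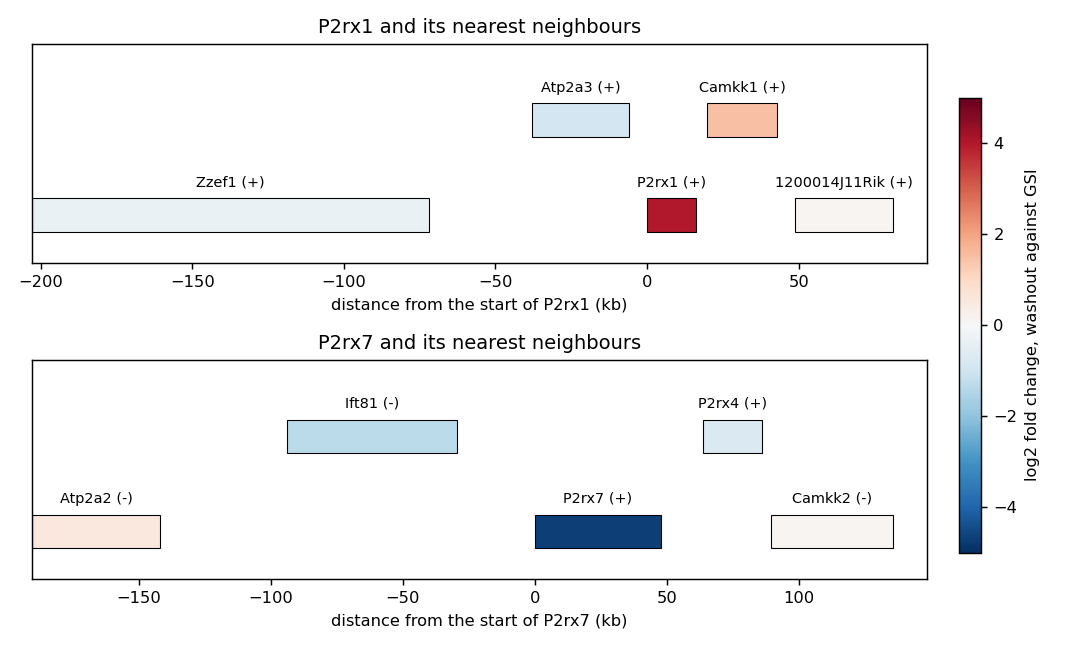
P2rx1 (top) and P2rx7 (bottom) with their nearest annotated neighbors, drawn to scale by distance in kb from the start of the P2X gene. The color is the log2 fold change upon washout, red for higher and blue for lower, and the strand is given with each name. P2rx1 at 3.99 stands between Atp2a3 at -0.93 and Camkk1 at 1.50, and P2rx7 at -4.72 lies before P2rx4 at -0.73.

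The 5 genes whose pattern was most like that of P2rx1 over the 4 libraries were sought by the root mean square difference of mean-centered log2(CPM + 0.5). They were 2700054A10Rik (0.103), Adgrg1 (0.149), Arhgef10l (0.174), Hey1 (0.175) and Oprk1 (0.255). Adgrg1, an adhesion receptor, had 139 and 96 against 2243 and 832 counts. Hey1 encodes a repressor that is a Notch target in many tissues, and had 518 and 264 against 6123 and 2684 counts. Oprk1, the kappa opioid receptor, had 221 and 95 against 4087 and 1459 counts. The likeness of 2700054A10Rik, with 5 and 4 against 278 and 137 counts, rests in part on the pseudocount, as its fitted log2 fold change was 5.50. These genes were picked by this comparison, and their values are given without a test.

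The rest of purinergic signaling was followed in 8 lists with 93 genes, of which 60 were tested. Here 3 genes rose (Alpl, Adk and Camkk1), 13 fell and 44 did not pass, beside 7.74% and 11.7% of all genes. The median log2 fold change was -0.20, whereas that of all genes tested was -0.01. The counts of each list below are to be set beside the same shares. As the lists were chosen with earlier results of these data known, nothing is read from these counts. The p-values below are adjusted over all genes tested. The plot of the purinergic lists shows each tested gene.

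**Figure D5:**
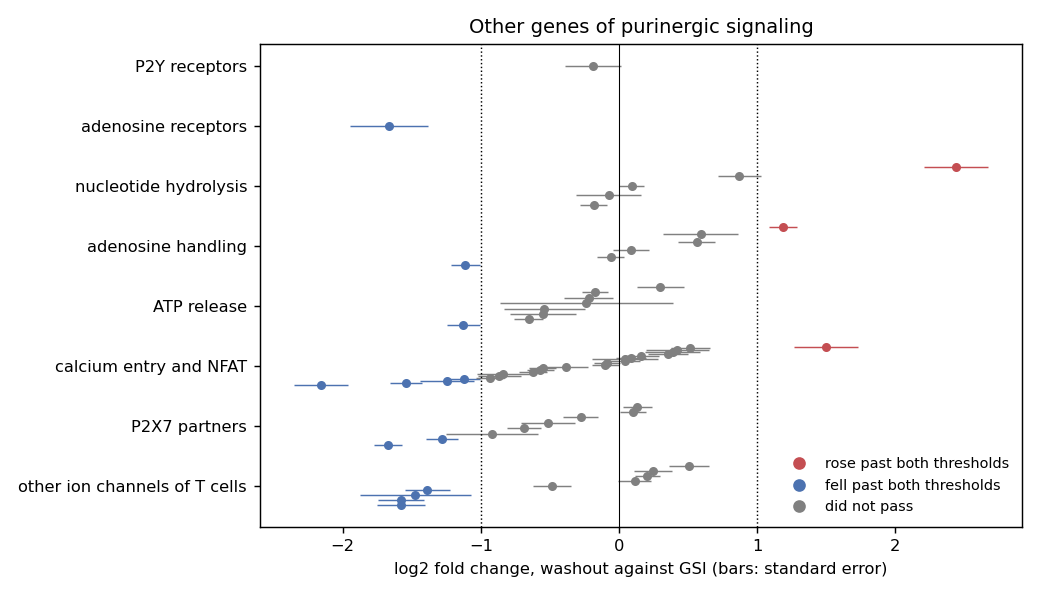
Log2 fold change upon washout (horizontal axis) of each tested gene of the purinergic lists, with bars of 1 standard error. Red genes rose and blue genes fell past both thresholds, grey genes did not pass, and dotted lines stand at -1 and 1. The 3 red genes are Alpl, Adk and Camkk1, and lists without them hold grey and blue points alone.

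P2Y receptors are the G protein-coupled receptors for nucleotides. Of 8 P2Y genes 4 were at 0 in all libraries and only P2ry10 was tested, with 5391 and 1986 counts in the GSI libraries against 5442 and 1438. Its log2 fold change was -0.19 (standard error 0.204, adjusted p = 0.472 by edgeR with Benjamini-Hochberg adjustment), and its mean level of 47.9 RPKM was above that of any P2X gene. P2ry10 is now regarded as a lysophospholipid receptor. Adora2a, the adenosine receptor that raises cAMP in T cells, was the only one of 4 adenosine receptors tested. It fell from 157 and 58 to 46 and 20 counts (-1.66 on the log2 scale, standard error 0.280, adjusted p = 0.00387 by the same test).

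Of 13 genes for the hydrolysis of nucleotides, 5 were tested and 1 rose, with a median of 0.09. The list was drawn up for enzymes of the cell surface, but Entpd4, Entpd5, Entpd6 and Entpd7, the other 4 tested, encode enzymes known mainly from inside the cell or the secretory pathway, and none of them was called. The gene that rose was Alpl, the tissue-nonspecific alkaline phosphatase. Alpl went from 94 and 33 to 544 and 170 counts (log2 fold change 2.44, standard error 0.231, adjusted p = 0.000597 by edgeR). Entpd1 (CD39), which degrades ATP and ADP at the surface of lymphocytes, was at 0 in all libraries, and Nt5e (CD73), which makes adenosine, had 6, 0, 1 and 0 counts. Entpd5, which acts on nucleoside diphosphates in the endoplasmic reticulum, was the most abundant of the list at a mean of 18.2 RPKM, with a log2 fold change of 0.09.

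All 6 genes of adenosine handling were tested. Adk, the kinase that turns adenosine into AMP, rose by 1.19 on the log2 scale (standard error 0.102, adjusted p = 0.000467 by edgeR), but came to 0.99 with total-count scaling and was then not called. Slc29a3, a nucleoside transporter of lysosomes, fell by 1.11 (standard error 0.106, adjusted p = 0.000605 by edgeR). The surface transporter Slc29a1 had the highest mean level of the list, 63.7 RPKM, and a log2 fold change of -0.06.

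Among 13 genes of ATP release, 8 were tested, with a median log2 fold change of -0.39. Only Lrrc8c, a subunit of the volume-regulated anion channel, passed, and it fell by 1.13 (standard error 0.122, adjusted p = 0.000847 by edgeR). Lrrc8b of the same channel had the highest mean level, 21.8 RPKM, and a log2 fold change of -0.17. Panx1, the pannexin through which T cells release ATP, was at 0.30 and not called (adjusted p = 0.188 by edgeR).

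Downstream of the receptors, all 22 genes of calcium entry and NFAT were tested, with a median of -0.24. Here 1 gene rose, Camkk1 (beside 7.74% of all genes), and 4 fell (beside 11.7%). Atp2b4, a calcium pump of the plasma membrane, fell by 2.16 (standard error 0.194, adjusted p = 0.000533 by edgeR). Itpr2, the IP3 receptor that releases stored calcium, fell from 47042 and 22160 to 17570 and 6855 counts, by 1.54 on the log2 scale (standard error 0.118, adjusted p = 0.00038 by edgeR). The transcription factor Nfatc2 fell by 1.24 (standard error 0.197, adjusted p = 0.00308 by edgeR). When washout replicate 1 was left out, Nfatc2 came to -0.99 and was no longer called. Orai2, a subunit of the store-operated channel, fell by 1.12 (standard error 0.118). This gene was named here after its value was seen. Atp2a3, the neighbor of P2rx1, had the highest mean level per length of the list, 83.3 RPKM.

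The list of P2X7 partners holds genes that act after or beside this receptor, and 8 of its 15 genes were tested, with a median of -0.60. Gsdmd, the pore-forming gasdermin, fell from 36.3 and 34.5 to 11.0 and 11.3 RPKM, by 1.67 on the log2 scale (standard error 0.102, adjusted p = 0.000305 by edgeR). Pycard, the adaptor of the inflammasome, fell by 1.28 (standard error 0.115, adjusted p = 0.000534 by edgeR). The inflammasome itself was hardly seen, as Nlrp3 was at 0 in all libraries, Casp1 had 2, 0, 0 and 0 counts and Il1b had 1, 0, 0 and 0. Ano6, a scramblase that acts with P2X7, had the highest mean level, 199.7 RPKM, and a log2 fold change of -0.69. Art2b, the ecto-enzyme that sensitizes P2X7 of mouse T cells to NAD, was at -0.92 and did not pass (adjusted p = 0.0568 by edgeR). With total-count scaling Art2b came to -1.12 (adjusted p = 0.0296 by edgeR) and was called, and with the replicate block it was at -0.97 (adjusted p = 0.00669 by edgeR), short of the fold threshold, while its adjusted p over all alternatives ran from 0.00669 to 0.343.

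Of 12 other ion channels of T cells 9 were tested, with a median of -0.48. Among them 4 fell (beside 11.7% of all genes) and none rose (beside 7.74%). The cation channel Trpv2 fell by 1.58 (standard error 0.171, adjusted p = 0.000848 by edgeR), and the voltage-gated potassium channel Kcna3 passed at -1.39 (standard error 0.164, adjusted p = 0.0011 by edgeR). The proton channel Hvcn1 fell by 1.58 as well, and it overlaps Tctn1 on the other strand. Trpm4, a cation channel opened by calcium, fell by 1.47 (standard error 0.402, adjusted p = 0.0228 by edgeR). Without GSI replicate 1 the log2 fold change of Trpm4 was -1.03 (adjusted p = 0.118 by edgeR, with 1.85e-07 to 0.118 over all alternatives), and the gene overlaps Rpl14-ps1. Kcnn4, the potassium channel opened by calcium, had the highest mean level at 102.1 RPKM and a log2 fold change of -0.48, under the fold threshold.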

How the data were processed

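RNA was extracted from Beko cells with a spin-column kit, and libraries were prepared from total RNA depleted of ribosomal RNA with a stranded kit. The authors aligned the reads to mm9 with HISAT2 (2.2.1 in the submitters' processing notes) and deposited raw counts per gene without normalization, with 1 column for each library. The strand setting and the overlap mode of the counting are not given in the sources used here. Every column was used.

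Counts were compared between washout and GSI with edgeR 4.0.16 in R 4.3.3 by the quasi-likelihood test, after filterByExpr and TMM and with no covariate. The Benjamini-Hochberg adjustment ran over 12266 genes. Standard errors were derived from each log2 fold change and its F statistic. CPM use the TMM factors, and RPKM also the exon length of the GENCODE vM1 gene on mm9, to which 20641 of 24391 symbols matched. Intervals and limits cover counting error only. The biological coefficient of variation was 0.121, and replicates differed by more than sampling noise (chi-square per degree of freedom 14 in GSI and 22.9 upon washout). The edgeR comparison was tested on simulated data.

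The P2X genes and the lists were chosen with earlier results of these data known. The named genes are the 7 P2X genes, up to 4 called genes and the most abundant gene of each list, the 2 nearest neighbors on each side of P2rx1 and P2rx7, and the 5 genes most like P2rx1. Alternatives were DESeq2 1.42.0, RLE or total-count scaling, a filter at 1 count or at 10 counts per library, a replicate block, thinning to the smallest library, a prior count of 2, the adjusted p-value alone, and leaving out each library.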

Additional observations from a re-analysis of the deposited data

How the results depend on the processing

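None of the 5 P2X genes tested changed direction in any alternative in which it could be fitted. P2rx2 and P2rx5 gave no value after thinning or with at least 10 counts in every library, nor did P2rx7 with the latter. With total-count scaling 586 genes were higher, and the log2 fold changes of P2rx4 and P2rx5 were -0.93 and 0.42. Without the fold threshold, 3315 genes passed as higher and 3120 as lower, among them 7 and 22 of the purinergic lists. A prior count of 2 moved P2rx7 to -3.97. With DESeq2 the standard errors were larger, at 0.255 for P2rx1, 1.08 for P2rx2, 0.247 for P2rx4, 0.907 for P2rx5 and 0.964 for P2rx7.

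Leaving out 1 library at a time gave a range of 3.67 to 4.24 for P2rx1 and 1.15 to 2.00 for P2rx2. The range was -0.85 to -0.58 for P2rx4, 0.42 to 0.92 for P2rx5 and -8.82 to -4.17 for P2rx7. In these fits the lone library of a group is assumed to vary like the others. The value of -8.82, without washout replicate 1, is set by the prior count, as the washout library that is left has 0 counts of P2rx7. The cause of the other shifts was not tested.

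The replicate numbers are shared by both groups, but no source says that they mark a shared culture or day. The deviations of same-numbered libraries correlated at 0.533 across genes, over 2 pairs. With the replicate number as a block, P2rx1 was at 3.99, P2rx4 at -0.75 and P2rx7 at -4.83, and 981 genes were higher and 1576 lower. The block left 3 purinergic list genes higher and 13 lower. Depth limits the low members, since 3 counts correspond to 0.0938 and 0.206 CPM in GSI and to 0.0881 and 0.223 CPM upon washout.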
